A study of Bos taurus with 5 samples.

Results

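COX6A2 and COX7A1 encode the muscle forms of subunits VIa and VIIa of cytochrome c oxidase, and were found in the deposited table by their gene names, as 2 of its 9022 genes. They were chosen by their FPKM in these same libraries, so their levels are a description and carry no test. The libraries came from total RNA of longissimus dorsi, a long back muscle, of 5 Jiaxian Red cattle at an age of 18 months. There was 1 library per animal, all 5 libraries formed 1 group, and no treatment, genotype or second tissue was set against them. The study sought candidate genes of muscle development. FPKM counts fragments per length of transcript and per size of library, which puts levels of different genes on a common scale. Folds and ranks between genes still depend on how well each gene was estimated, which was not tested. Without counts the depth is unknown, and the summed FPKM of a library lay between 193706 and 223251. A difference between animals and a difference between tissue pieces or library preparations cannot be told apart with such a design, nor, in bulk tissue, can fewer cells of a type and less RNA per cell.

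Cytochrome c oxidase, complex IV of the respiratory chain, takes electrons from cytochrome c, passes them to oxygen and pumps protons across the inner mitochondrial membrane. Its catalytic core is encoded by the mitochondrial genome, and the smaller subunits around it are encoded in the nucleus. Some of these nuclear subunits exist as a pair of forms from separate genes. COX6A2 and COX7A1 are the forms of heart and skeletal muscle, and COX6A1 and COX7A2 are the forms of liver and most other tissues. Subunit VIa lies where the monomers of the enzyme dimer meet and takes part in its regulation by adenine nucleotides. Subunit VIIa is a small protein with a single membrane span, and its forms also take part in how complex IV joins complex III in larger assemblies. In mice COX7A1 is also known as a gene of brown fat.

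Each gene had 1 listed transcript, so the transcript and gene values are the same. COX6A2 (ENSBTAG00000019521) spanned bases 27479986 to 27481274 of chromosome 25, and COX7A1 (ENSBTAG00000014878) bases 46806391 to 46808127 of chromosome 18, as the deposited table places them. The COX6A2 interval overlapped that of ITGAD, an integrin alpha chain of leukocytes, over 943 bases. ITGAD did not exceed 0.374 FPKM in any library. How strand was handled is not given in the sources used here, so reads from the shared stretch cannot be assigned with certainty. COX7A1 overlapped no other listed gene. Its nearest listed neighbour, the calpain small subunit gene CAPNS1, ended 545 bases away and had 34.2, 23.2, 28.0, 34.2 and 26.8 FPKM in libraries 1 to 5.

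COX7A1 was an abundant transcript in all 5 muscles. It had 262, 257, 418, 485 and 294 FPKM in libraries 1 to 5, with a mean of 343 ± 103 FPKM (SD, n = 5). Libraries 3 and 4 were high and libraries 1, 2 and 5 were lower and close together. The highest value was 1.89 times the lowest. By its mean the gene stood at rank 55 of all 9022, and its rank within single libraries ran between 44 and 70.

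COX6A2 differed far more between the same muscles. It had 18.6, 186, 283, 423 and 129 FPKM in libraries 1 to 5, with a mean of 208 ± 154 FPKM (SD, n = 5). Library 1 was far below the rest, and library 4 was the highest, as it was for COX7A1. The highest value was 22.7 times the lowest, and without library 1 this ratio was 3.27. By its mean the gene stood at rank 106, with ranks of 106, 69, 54 and 171 in libraries 2 to 5 but 1126 in library 1. COX6A2 was below COX7A1 in 5 of 5 libraries. Its level was 0.0711 times that of COX7A1 in library 1 and 0.723, 0.676, 0.872 and 0.441 times in libraries 2 to 5. The log2 ratio of COX6A2 over COX7A1, here and below on the log2(FPKM + 1) scale, was -1.23 ± 1.45 over all 5 libraries and -0.60 ± 0.41 over libraries 2 to 5 (SD, n = 5 and n = 4).

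**Figure D1:**
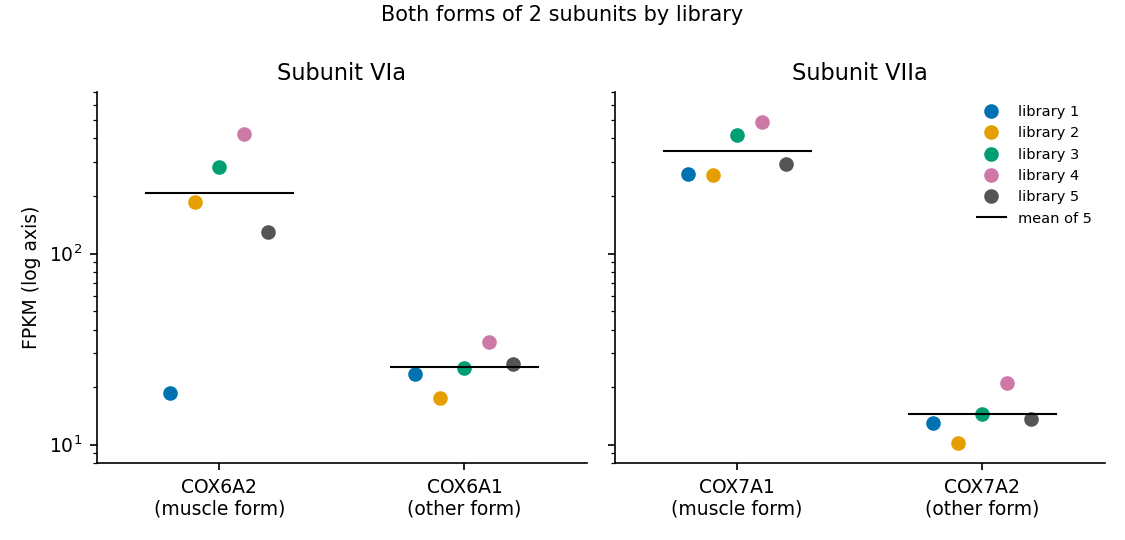
FPKM of COX6A2 beside COX6A1 and of COX7A1 beside COX7A2 on a log axis, with 1 point per library and a bar at the mean of 5. COX7A1 lies above COX7A2 in every library, whereas the library 1 point of COX6A2, at 18.6 FPKM, lies among those of COX6A1.

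Set against the other form of the same subunit, COX7A1 dominated its pair in every animal. COX7A2 had 12.9, 10.3, 14.5, 21.1 and 13.6 FPKM in libraries 1 to 5. COX7A1 was 20.2, 25.1, 28.8, 23.0 and 21.5 times as high in the same libraries. It made up 95.9% ± 0.527 of the FPKM of the pair (SD, n = 5), between 95.3% in library 1 and 96.6% in library 3. A share this close to its ceiling moves little, and the fold between the forms, 20.2 to 28.8, shows its variation more fully.

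COX6A2 was the higher form of subunit VIa in 4 libraries and the lower form in library 1. COX6A1 had 23.5, 17.5, 25.0, 34.4 and 26.6 FPKM in libraries 1 to 5, so its library 1 value lay inside the range of the others. COX6A2 was 0.793 times COX6A1 in library 1 and 10.6, 11.3, 12.3 and 4.87 times in libraries 2 to 5. Its share of the pair was 44.2% in library 1 and 91.4%, 91.9%, 92.5% and 83.0% in libraries 2 to 5, with a mean of 80.6% ± 20.7 (SD, n = 5). COX6A1 was listed with a second transcript at 0 in all 5 libraries, which added nothing to its sum. The summed FPKM of both forms was 42.1 in library 1 and 203, 308, 458 and 156 in libraries 2 to 5. The low COX6A2 value of library 1 was therefore not matched by a higher COX6A1 value there.

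**Figure D2:**
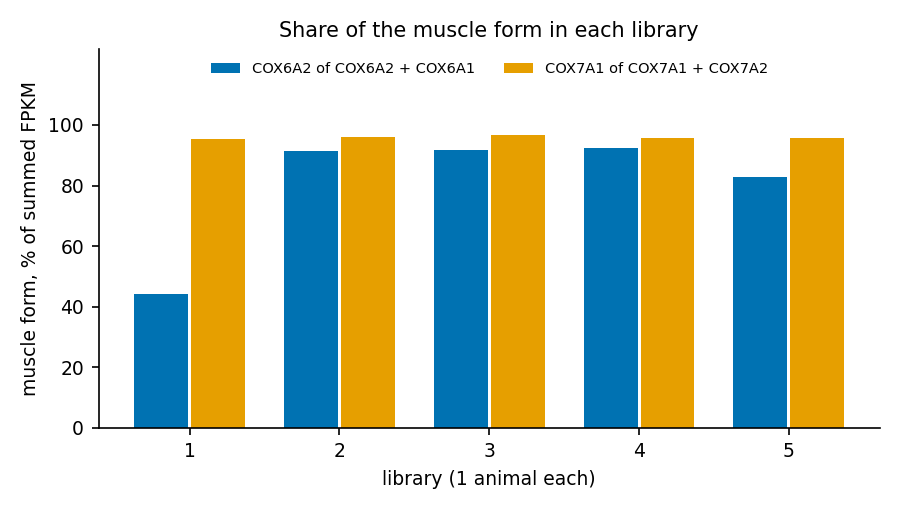
Share of the muscle form in the summed FPKM of both forms, by library, with 1 pair of bars per animal. The COX7A1 share lies between 95.3% and 96.6% in all 5 libraries, and the COX6A2 share is 44.2% in library 1 and at least 83.0% in the others.

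Among the nuclear subunits of the complex, 10 of 18 symbols sought were listed, and COX7A1 ranked first of the 10 in 5 of 5 libraries. It held 24.9% ± 2.58 of their summed FPKM (SD, n = 5). COX6A2 held 2.03% in library 1, where it ranked 9th, and 15.7%, 17.7%, 20.9% and 10.6% in libraries 2 to 5, where it ranked 3rd, 2nd, 2nd and 5th. In order of mean FPKM after COX7A1 came COX4I1, the subunit IV gene, at 212 ± 33.4, then COX6A2, and then COX8B, the muscle form of subunit VIII, at 181 ± 61.5 FPKM (SD, n = 5). COX7B followed at 176 ± 45.8 FPKM, COX5B at 113 ± 25.6 and COX5A at 81.3 ± 12.8 (SD, n = 5). The lowest were COX6B1 at 34.0 ± 9.33, COX6A1 at 25.4 ± 6.11 and COX7A2 at 14.5 ± 4.03 FPKM (SD, n = 5). COX4I2, COX6B2, COX6C, COX7A2L, COX7C, COX8A, COX8C and NDUFA4 were not analysed here.

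The step between COX7A1 and COX4I1 was larger than its spread, with a log2 difference of 0.66 ± 0.20 and the same direction in 5 of 5 libraries. COX6A2 did not separate from the genes next to it in this order. COX4I1 was above COX6A2 in 3 of 5 libraries, with a log2 difference of 0.57 ± 1.54, and COX6A2 was above COX8B in 3 of 5, with a log2 difference of -0.30 ± 1.39 (SD, n = 5). Lower in the order, COX8B and COX7B, and COX6B1 and COX6A1, also did not differ beyond their spread.

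COX4I1 was among the least variable subunits and serves here as a common denominator. COX7A1 was 1.47, 1.36, 1.70, 1.95 and 1.499 times COX4I1 in libraries 1 to 5. COX6A2 was 0.105 times COX4I1 in library 1 and 0.980, 1.15, 1.70 and 0.661 times in libraries 2 to 5. COX8B, the third muscle form, was 0.692 times COX4I1 in library 1 and 0.775, 0.709, 1.14 and 0.911 times in libraries 2 to 5. In library 1 COX6A2 was far below its proportion elsewhere, while COX7A1 lay inside its range of the other libraries and COX8B just under it. The core subunit gene COX1 had 12052, 11794, 12437, 16972 and 12117 FPKM in libraries 1 to 5, and COX2 had 5354, 4702, 5338, 9527 and 5178. Both were highest in library 4, and in neither was library 1 the lowest. COX3 was listed at or below 0.0802 FPKM and was not used.

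All 10 listed nuclear subunits lay below their own mean log2 value in library 1, where 49.7% of the 6136 detected genes did; a gene is called detected at a mean of at least 1 FPKM. All 10 lay above it in library 3, against 57.0% of detected genes, and in library 4, against 52.3%. In library 2, 8 of 10 lay below it, against 53.8%, and COX6A2 and COX5B lay above. In library 5, 6 of 10 lay below it, against 46.6%, among them COX6A2 and COX7A1. With libraries scaled to 1 common FPKM total, COX6A1 moved above its mean in library 1, leaving 9 of 10 below. With that scaling COX5B and COX8B moved below their mean in library 3, leaving 8 of 10 above. With median-ratio size factors, 7 of 10 were above in library 3 and 7 of 10 below in library 2. COX6A2 and COX7A1 kept their direction in every library under both scalings.

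The deviation of COX7A1 was -0.34, -0.37, 0.33, 0.55 and -0.18 log2 units in libraries 1 to 5. The median deviation of the 8 other nuclear subunits was -0.33, -0.22, 0.10, 0.42 and -0.02, so COX7A1 lay on the same side of its mean as this median in every library. The median over all detected genes stayed between -0.02 and 0.03. The deviation of COX6A2 was -2.86, 0.40, 0.999, 1.58 and -0.12 log2 units in libraries 1 to 5. Library 1 held 68.97% of its sum of squared deviations and library 4 held 21.1%.

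**Figure D3:**
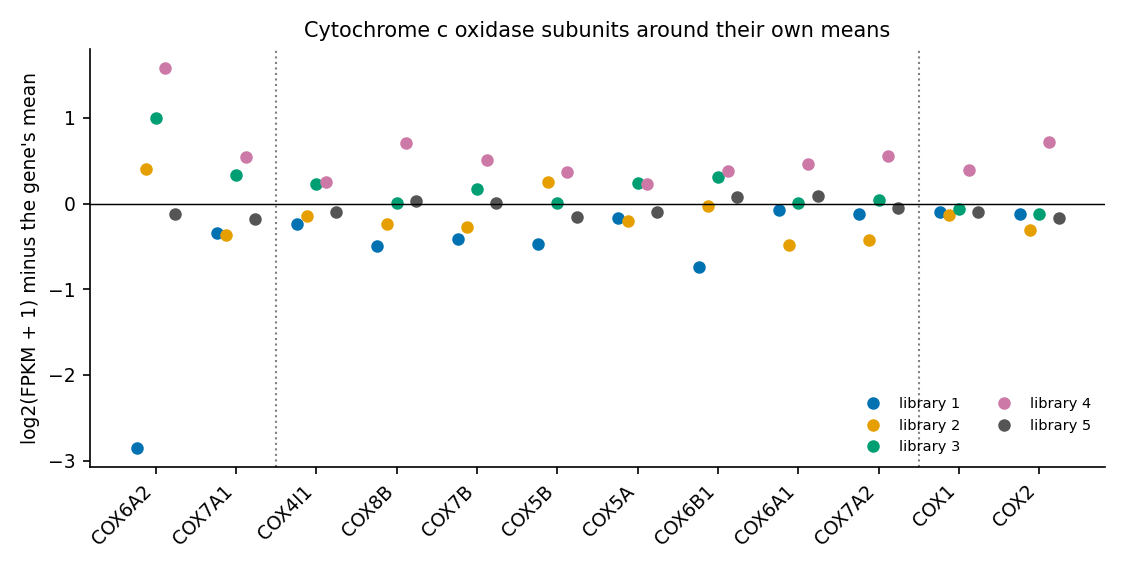
Deviation of each cytochrome c oxidase gene from its own mean on the log2(FPKM + 1) scale, 1 point per library. Dotted lines set COX6A2 and COX7A1 apart from the other nuclear genes and from the mitochondrial COX1 and COX2. The library 1 point of COX6A2, at -2.86, is the farthest from 0.

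The SD of COX6A2 over the 5 libraries was 1.72 log2 units, rank 33 among the 6136 detected genes, of which 3.63% had an SD of at least 1. Of the 165 detected genes within a factor of 2 of its mean FPKM, COX6A2 had the greatest SD, and their median SD was 0.30. The SD of COX7A1 was 0.42, rank 1352 overall and rank 29 of the 102 detected genes within a factor of 2 of its mean. The 8 other nuclear subunits had SDs between 0.22 and 0.45, with a median of 0.35, so COX7A1 fell inside their range and COX6A2 outside it. Without library 1 the SD of COX6A2 was 0.74, rank 422 of 6081 genes, still above the highest of the 8 others in those 4 libraries, 0.41.

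**Figure D4:**
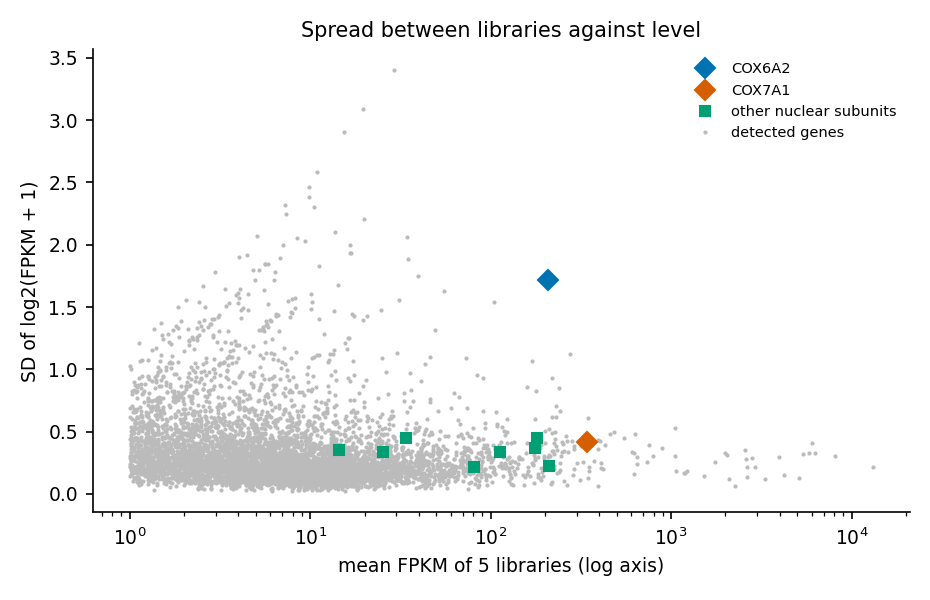
SD of log2(FPKM + 1) over 5 libraries against mean FPKM on a log axis, for 6136 detected genes. COX6A2 lies at 1.72, above every gene near its level, and COX7A1 at 0.42 lies with the 8 other nuclear subunits.

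Few other genes had a library 1 value so far below the rest. The library 1 value of COX6A2 minus its mean over libraries 2 to 5 was -3.57 log2 units, and the plain FPKM mean of those 4 libraries, 255 ± 129 (SD, n = 4), was 13.7 times the library 1 value. A limit of 2 log2 units below the other libraries, chosen after the values were seen, was passed in library 1 by 37 detected genes, 0.603% of them. The same limit was passed by 23, 31, 20 and 25 genes in libraries 2 to 5. Among the 37 was RPL3, a ribosomal protein gene that every cell uses, named here after its values were seen. It had 0.00412, 0.00272, 70.6 and 75.4 FPKM in libraries 1 to 4 and was listed at 0 in library 5, so it was near 0 in 3 libraries. Others of the 37 were near 0 in library 1 alone, such as PCCB, at 0.106 FPKM there and 18.1 to 26.5 in the others. ATOX1 was listed at 0 in library 1 and had 17.5 to 29.8 FPKM in the others. COX6A2 had 18.6 FPKM in library 1. Whether the COX6A2 value of library 1 is a failed estimate was not tested. Of the 216 genes with a mean of at least 100 FPKM, 2 passed it in library 1, COX6A2 and VDAC3, a channel gene of the outer mitochondrial membrane. A gap between 1 library and the rest above 0.71 of the whole range was found for 6.76% of detected genes on the FPKM scale. COX6A2 and COX7A1 did not reach it, with 0.347 and 0.295. Both of these ratios measure library 4 standing high. On the FPKM scale the gap of COX6A2 below, at library 1, was smaller than that.

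The labelled tissue was checked by its markers. All 8 skeletal fibre markers sought were listed, and their summed FPKM was 17502 in library 1 and between 17324 and 18979 in libraries 2 to 5. The skeletal actin gene ACTA1 had 5214 FPKM and the slow myosin gene MYH7 3569 FPKM in library 1, where the other libraries had 4575 to 5658 and 2914 to 3558 FPKM. Of the 8 markers 3 lay below their own mean in library 1, where 49.7% of detected genes did. These were MYLPF, the fast regulatory light chain gene, at 1961 FPKM in library 1 and 2491 to 3342 FPKM in the others, MYBPC1, the slow myosin-binding protein C gene, at 2257 against 2547 to 2843, and MB, the myoglobin gene, at 106 against 133 to 766. Each of the 3 was lowest in library 1. The other 5 lay above their mean there, among them CKM, the muscle creatine kinase gene and the most variable of the 8. It was highest in library 1, with 35.5, 14.9, 18.5, 9.67 and 2.50 FPKM in libraries 1 to 5 and a mean of only 16.2. Of the 5 heart muscle markers 2 were listed, MYH6 at 33.6 ± 6.74 FPKM and TNNT2 at 1.83 ± 0.261 (SD, n = 5). Of the brown adipocyte markers DIO2 alone was listed, at no more than 1.22 FPKM. Of the 4 white adipocyte markers sought, 0 were listed under their symbols.

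Markers of other cell types differed between libraries as well. The 3 smooth muscle markers summed to 86.3 FPKM in library 1 and to 40.6, 68.0, 58.8 and 34.1 in libraries 2 to 5. The 2 listed fibroblast markers summed to 651 FPKM in library 1 and to 316, 436, 641 and 371 in libraries 2 to 5. COL3A1 carried this sum, with 625 FPKM in library 1 and 609 in library 4, and PDGFRA had 25.9 and 32.1. The 4 endothelial markers summed to between 77.7 and 90.3 FPKM. The 2 listed leukocyte markers summed to at most 3.97 FPKM, and HBB, the red cell marker listed, reached 3.09. The part of these cell types in the COX6A2 values was not tested.

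Other genes around the complex are given by role. Cytochrome c, the electron donor, is encoded by CYCS, which had 112, 102, 152, 148 and 127 FPKM in libraries 1 to 5. Of the nuclear genes of complex III, 5 of 5 listed had negative deviations in libraries 1 and 2 and positive ones in library 4. Of all detected genes 49.7% and 53.8% had negative ones in libraries 1 and 2, and 52.3% positive ones in library 4. With the common FPKM total the complex III counts were 4 in library 1 and 4 in library 4, and with size factors 4 in library 2. UQCR11 had 155 FPKM in library 1 and 327 in library 4, and UQCRB had 118 and 330. UQCRH differed less, with 107 and 118, and was highest in library 3, at 135. SDHA and SDHB of complex II had negative deviations in libraries 1 and 2 and positive ones in libraries 3, 4 and 5, under both scalings as well. Of the 15 detected genes that assemble cytochrome c oxidase or serve the translation of its core, 10 were under their mean in library 1 (9 with the common total), against 49.7% of detected genes, and 11 were over it in library 4, against 52.3%. SLIRP, an RNA-binding partner of LRPPRC in mitochondria, had 82.7 FPKM in library 1 and 168 in library 4, and COA3 had 18.0 and 44.5. COA6, the most variable gene of this list with an SD of 1.52 log2 units, went the other way, with 9.44 FPKM in library 1 and 0.667 in library 4. COX14 and COX17 also varied far more than COX7A1, with SDs of 1.43 and 1.31 log2 units.

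In mice the COX6A2 promoter needs a MEF2 site and an E box for its activity in muscle, and the oestrogen-related receptors act on respiratory genes widely. MEF2C, the most abundant listed regulator, had 54.9, 78.6, 73.6, 58.3 and 61.7 FPKM in libraries 1 to 5, lowest in library 1 but close to that in library 4. ESRRA had 18.9, 17.0, 25.0, 35.6 and 25.9 FPKM, highest in library 4 as COX6A2 and COX7A1 were. ESRRG, a second receptor of that family, had 20.0003, 5.99, 10.2, 4.45 and 4.63 FPKM, highest in library 1 and lowest in library 4. The coactivator gene PPARGC1A had 3.48, 3.47, 1.38, 1.25 and 0.316 FPKM, highest in libraries 1 and 2. GABPA, a regulator of nuclear respiratory genes, was at 0.13 FPKM in library 2 and between 12.04 and 13.03 in the others. Of the 13 detected regulators 8 were under their mean in library 1, against 49.7% of detected genes, and 8 were over it in library 4 (5 with the common total, 7 with size factors), against 52.3%. Both counts are near the share of all genes.

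The genes of most similar pattern were found by the root mean square difference of profiles centred on their mean, over 5 libraries and 1915 genes with a symbol and a mean of at least 10 FPKM. Nearest to COX7A1 were ATP5MC1 and ATP5MC3, which encode the ring subunit of ATP synthase, with differences of 0.06 and 0.08 log2 units. ATP5MG, a further ATP synthase subunit, and DHRS7C, a dehydrogenase of the sarcoplasmic reticulum, were also among the 5 nearest, each at 0.12. The set depended on all 5 libraries, as only 1 or 2 of the 5 nearest remained when any library was left out. ATP5MC1 had 36.8, 32.0, 54.1, 63.7 and 38.2 FPKM in libraries 1 to 5. COX6A2 stood at place 1903 of the 1915 by this measure, with a difference of 1.30 log2 units. The profiles were not scaled to their spread. An SD of 1.72 for COX6A2 against 0.42 for COX7A1 therefore sets them far apart whatever the direction of their patterns.

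Nearest to COX6A2 were genes that were also very low in library 1. GPRC5C, an orphan receptor gene, came first at 0.39 log2 units, with 16.5, 14.8, 19.7 and 4.62 FPKM in libraries 2 to 5, and was listed at 0 in library 1. VDAC3 followed at 0.46, with 13.7, 56.3, 195, 193 and 67.2 FPKM in libraries 1 to 5. PCCB, a subunit of propionyl-CoA carboxylase, came next at 0.49, then ATOX1, a copper chaperone, at 0.53, and HIST1H2AC, a histone H2A gene, at 0.54. PCCB had 0.106 FPKM in library 1, ATOX1 was listed at 0 there and HIST1H2AC had 2.76.

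Without library 1 a different set stood nearest to COX6A2, and 0 of these 5 remained. FABP3, the fatty acid binding protein of muscle and heart, came first at 0.12 log2 units over libraries 2 to 5, with 201, 242, 401 and 126 FPKM. It had 175 FPKM in library 1, inside its range elsewhere. MFAP5, a microfibril gene, PRKAB2, a subunit of AMP-activated protein kinase, NMRK2, a muscle nicotinamide riboside kinase, and MRPL28, a mitochondrial ribosome gene, followed at 0.17 to 0.26. NMRK2 had 164, 256, 479 and 95.3 FPKM in libraries 2 to 5 and 196 in library 1. COX7A1 stood at place 27 of 1936 genes by this measure, against place 135 of 1915 with library 1 included.

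**Figure D5:**
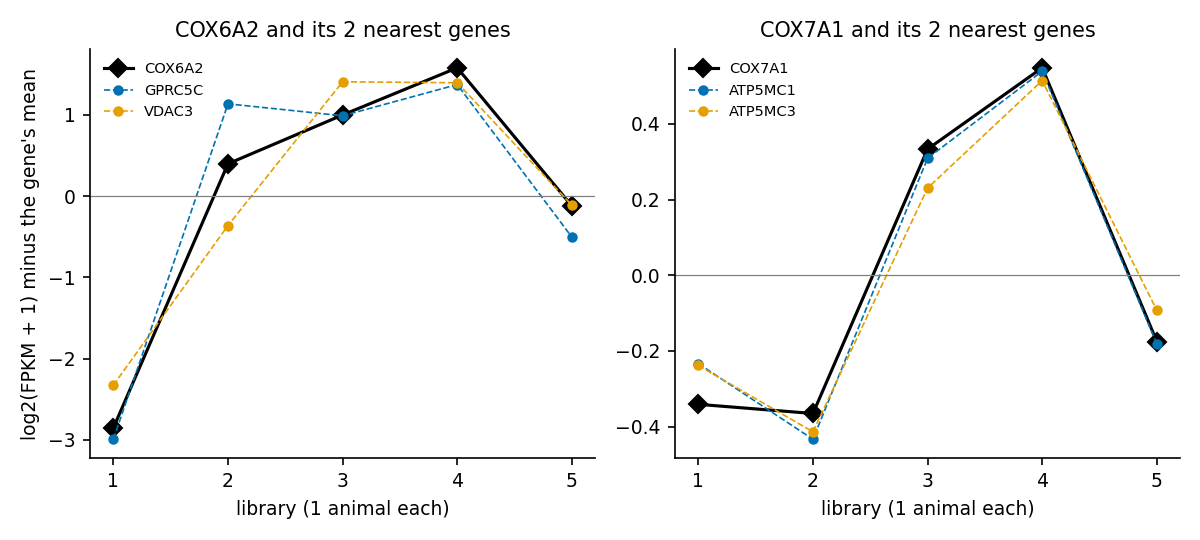
Deviation from the gene's mean on the log2(FPKM + 1) scale in each library, for COX6A2 and its 2 nearest genes and for COX7A1 and its 2 nearest genes. The vertical scales differ: the COX6A2 set lies between -2.99 and -2.33 in library 1, whereas the COX7A1 set stays between -0.43 and 0.55 in all libraries.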

How the data were processed

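Longissimus dorsi RNA of 5 cattle was sequenced, 1 library each. Per the file headers, the deposited values are FPKM per transcript and library, made by the authors. In the submitters' processing notes stand HTSeq 0.6.0, DESeq2 1.10.1 and the build UMD3.1, with no role for any. The aligner and the program behind the FPKM are not given in the sources used here. All 10 listed nuclear subunits overlapped their position in a RefSeq table of ARS-UCD2.0, so no build is claimed for the coordinates printed.

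FPKM were summed per gene identifier and used as log2(FPKM + 1), with a mean of 1 FPKM as detection limit, in Python 3.11.15 with numpy 2.4.6 and pandas 2.3.3; the measures were tested on simulated data. Fold values are plain FPKM ratios unless given as log2. The members and lists were chosen with earlier results of these data known. Named genes were the members, the listed oxidase subunits, the 2 highest and the most variable gene of other lists, the 5 nearest profiles and genes overlapping or next to a member, though not every such gene is printed, and 1 of the nearest profiles is not reported here. MYBPC1, MB, COX14, COX17 and UQCRH were named after their values were seen. So were ESRRG, PPARGC1A, RPL3 and the profiles nearest to COX6A2 without library 1. No test was made, because there was 1 group and the members were chosen by their values. Alternatives were scaling, pseudocount, detection limit, transcript choice and leaving out libraries. Promoter and protein sequences were not used here.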

Additional observations from a re-analysis of the deposited data

Results flagged for a closer look

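In 3 results on cytochrome c oxidase, and in 3 genes named beside it, 1 library lay apart from the other 4 by more than 0.71 of the whole range. Chance flags about 1 in 20 groups of this size, and 6.76% of detected genes passed the same limit. The COX6A2 share of the FPKM of COX6A2 and COX6A1 was low in library 1, at 44.2% against 83.0% to 92.5%, with a gap ratio of 0.803. That flag depends on the percent scale. As a fold of COX6A2 over COX6A1 the gap ratio at library 1 was 0.355, under the limit. COX1 was high in library 4, at 16972 FPKM against 11794 to 12437, with a gap ratio of 0.876. COX2 was high in library 4 as well, at 9527 FPKM against 4702 to 5354, with a gap ratio of 0.865. GABPA was low in library 2, at 0.13 FPKM against 12.04 to 13.03, with a gap ratio of 0.923. MYH11, a smooth muscle marker, was high in library 1, at 7.82 FPKM against 0.35 to 0.82, with a gap ratio of 0.937. MB was high in library 5, at 766 FPKM against 106 to 214, with a gap ratio of 0.836.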

How the results depend on the processing

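Under 2 scalings, 2 other pseudocounts, 3 other detection limits, the highest transcript of each gene and leaving out each library in turn, 94 of 109 recomputed values moved by less than the spread between libraries or, for SDs, ranks and counts, by less than 1.5 times. Mean FPKM, the ratio of COX6A2 over COX7A1 and both shares were among these under every alternative tried for them. Neither scaling could change a share, and the transcript choice could change none of these values, since no second transcript added to them. Without library 1 the log2 ratio went from -1.23 to -0.60. It counted as unmoved because the SD of 1.45 was the yardstick, and that SD was 0.41 without library 1. The COX6A2 share likewise went from 80.6% to 89.7% against an SD of 20.7, which was 4.49 without library 1. The mean FPKM of COX6A2 went from 208 to 255 against an SD of 154, which was 129 without library 1. The SD of COX6A2 lay between 0.74 without library 1 and 1.98 without library 5. Its rank by SD lay between 24 and 422 with a library left out, and was 422 without library 1. That rank was 256 with a pseudocount of 0.1, 2 with a pseudocount of 10 and 5 among genes of at least 1 FPKM in every library. The rank of COX7A1 was 230 with a pseudocount of 10, 565 at a detection limit of 5 FPKM and 745 among genes of at least 1 FPKM in every library; the last 2 rank fewer genes, 3570 and 5178. In a check added after seeing the data, between 1 and 2 of the 5 genes nearest to COX7A1 remained with a library left out, and for COX6A2 between 0 and 5. All 5 remained under both scalings for each gene. Depth is unknown, so no counting error is given.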
